A study of Drosophila melanogaster with 54 samples.

Results

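S2 cells, a Drosophila line grown from late embryos, were treated with double-stranded RNA (dsRNA) against mof and compared with S2 cells treated with dsRNA against GFP, a jellyfish gene with no counterpart in the fly. The 6 libraries, 3 per treatment, were chosen by their labels from the 54 libraries of the series. All were of the Dmel-2 stock of S2, kept in serum-free medium, given the dsRNA and held at 25 °C for 3 days. The values are counts per gene of RNA that the labels give as polyA. The depth was 21441795 to 38772186 counts in mof dsRNA libraries and 20487339 to 36863478 counts in GFP dsRNA libraries. The rest of the series is from embryos, of which only males of St15 (14 to 16 h) are used here, 3 mof RNAi and 3 control libraries. Those were pools of 25 embryos sorted as negative for Sxl-GFP, from mothers with a maternal alpha-tubulin Gal4 driver (stock 7062) and either the mof RNA interference stock 58281 or the control stock 36304.

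mof encodes the acetyltransferase that places acetyl groups on lysine 16 of histone H4. In male flies it works within the male-specific lethal (MSL) complex, with the proteins MSL1, MSL2 and MSL3, the helicase MLE and the noncoding RNAs roX1 and roX2, and this complex coats the single X chromosome and raises its transcription. The same enzyme also sits in the nonspecific lethal (NSL) complex, which binds promoters on all chromosomes in both sexes.

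The RNA was checked against markers of male, hemocyte-like cells. Per kb of exon, roX2 was above 99.6% of tested genes in GFP dsRNA libraries and msl-2, whose protein is made in males, above 42.7%. The 11 hemocyte (blood cell) markers were uneven. The collagens Col4a1 and vkg, the phagocytosis receptors eater and crq, the GATA factor srp and its partner ush were well expressed. He, Sr-CI, Pxn and Hml were above only 16, 22, 25 and 42% of tested genes in GFP dsRNA libraries, per kb. NimC1 was under 1 CPM (counts scaled to library total) in every library. The summed level of the 11 markers was 11591 to 12126 CPM in mof dsRNA libraries and 8324 to 11170 CPM in GFP dsRNA libraries. Of the nervous system markers, nSyb, Syt1 and repo were under 1 CPM in every library and elav was at 55.5 to 65.6 CPM in mof dsRNA libraries and 72.1 to 88.0 CPM in GFP dsRNA libraries. Muscle markers summed to 28.4 to 30.6 CPM in mof dsRNA libraries and 28.2 to 32.4 CPM in GFP dsRNA libraries, nearly all from sls, with Mhc and Mlc1 under 1 CPM. Ovary and germline markers summed to at most 2.47 CPM in mof dsRNA libraries and 2.29 CPM in GFP dsRNA libraries.

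A pair of libraries stood apart. mof dsRNA replicate 1 had a summed level of mitochondrially encoded mRNAs of 756 CPM, against 3025 and 3560 CPM in the other mof dsRNA libraries and 4014 to 5143 CPM in GFP dsRNA libraries. GFP dsRNA replicate 2 had 597 CPM on genes of the ribosomal DNA, against 36.8 to 86.1 CPM in mof dsRNA libraries and 59.0 and 60.7 CPM in the other GFP dsRNA libraries. Nothing in the labels says that the libraries of a treatment came from separate cultures, so p-values measure only the spread between these libraries.

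The RNA of mof itself was lower than in every control in 2 of 3 mof dsRNA libraries, and its change did not pass with all libraries. mof (dm6 chromosome X, 5873840 to 5876853, minus strand) had 72.7, 60.9 and 50.1 CPM in the libraries labelled mof dsRNA, against 71.8, 65.9 and 70.5 CPM in the libraries labelled GFP dsRNA. mof dsRNA replicate 1 was above every control, and the groups overlapped. The log2 fold change (mof dsRNA over GFP dsRNA, as throughout) was -0.17 ± 0.16 (standard error, SE), with an adjusted p of 0.491 by edgeR's quasi-likelihood test. Without mof dsRNA replicate 1, mof fell, with a log2 fold change of -0.34 ± 0.08 (edgeR adjusted p 0.021). The files do not show if reads from the added dsRNA were counted as mof, so these counts are no sure measure of the cell's own mof RNA, and the groups are named by their labels throughout. The counts behind these values were 1305 to 2817 per mof dsRNA library and 1350 to 2599 per GFP dsRNA library.

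Across the genome, 2261 of 9676 tested genes, or 23.4%, passed at an adjusted p under 0.05, with 986 risen (10.2%) and 1275 fallen (13.2%). At an unadjusted p under 0.05 the share was 36.2%. Scaling on autosomal genes alone in place of all genes left 2211 passing but moved the split to 723 risen and 1488 fallen. Without both libraries that stood apart, 2585 genes passed, 1133 risen and 1452 fallen. Leaving out mof dsRNA replicate 2 lowered the count to 1317, and leaving out GFP dsRNA replicate 3 lowered it to 1375. Changes were small: fallen genes had a median log2 fold change of -0.31 and risen genes 0.23, and 82 genes fell and 14 rose by at least 1 log2 unit.

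Among the RNAs of the MSL complex, roX2 gave the clearest change. roX2 (dm6 chromosome X, 11579065 to 11580432, plus strand), the roX RNA that S2 cells mainly make, had 1831, 2078 and 1945 CPM in mof dsRNA libraries, against 3690, 4124 and 4144 CPM in GFP dsRNA libraries. Every mof dsRNA library was below every GFP dsRNA library, and the level fell by 51.0% (log2 fold change -1.03 ± 0.06, adjusted p 5.0e-06, edgeR). roX1 [ec], where square brackets name a protein-coding gene that shares exon sequence and so may share counts, was scarce. It had 2.53, 3.78 and 2.56 CPM in mof dsRNA libraries and 3.28, 5.08 and 4.04 CPM in GFP dsRNA libraries, from 71 to 149 counts per library. Its groups overlapped, and its log2 fold change of -0.48 ± 0.20 did not pass (edgeR adjusted p 0.10).

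The protein partners differed little. msl-3 [form3], which encodes the chromodomain subunit, had 43.1, 44.3 and 42.4 CPM in mof dsRNA libraries and 37.1, 38.6 and 38.4 CPM in GFP dsRNA libraries. It rose, with a log2 fold change of 0.19 ± 0.05 (edgeR adjusted p 0.016), and passed in 2 of the 6 fits that left out 1 library, those without GFP dsRNA replicate 2 and without mof dsRNA replicate 3. The scaffold msl-1 (0.09 ± 0.04, adjusted p 0.146) and msl-2, the subunit that males make and females repress (0.08 ± 0.05, adjusted p 0.234), did not pass by edgeR, although their groups did not overlap, which holds for 40.2% of tested genes. mle, the helicase that loads roX RNA, had 131, 134 and 139 CPM in mof dsRNA libraries against 141, 124 and 141 CPM in GFP dsRNA libraries, and its value near 0 changed sign between settings. Sxl, the switch gene of female development, whose male transcripts carry a stop codon, had 112, 126 and 125 CPM in mof dsRNA libraries and 168.6, 205.4 and 172.0 CPM in GFP dsRNA libraries. Sxl lies on X and fell by 33.5% (log2 fold change -0.59 ± 0.08, edgeR adjusted p 0.0014).

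**Figure D1:**
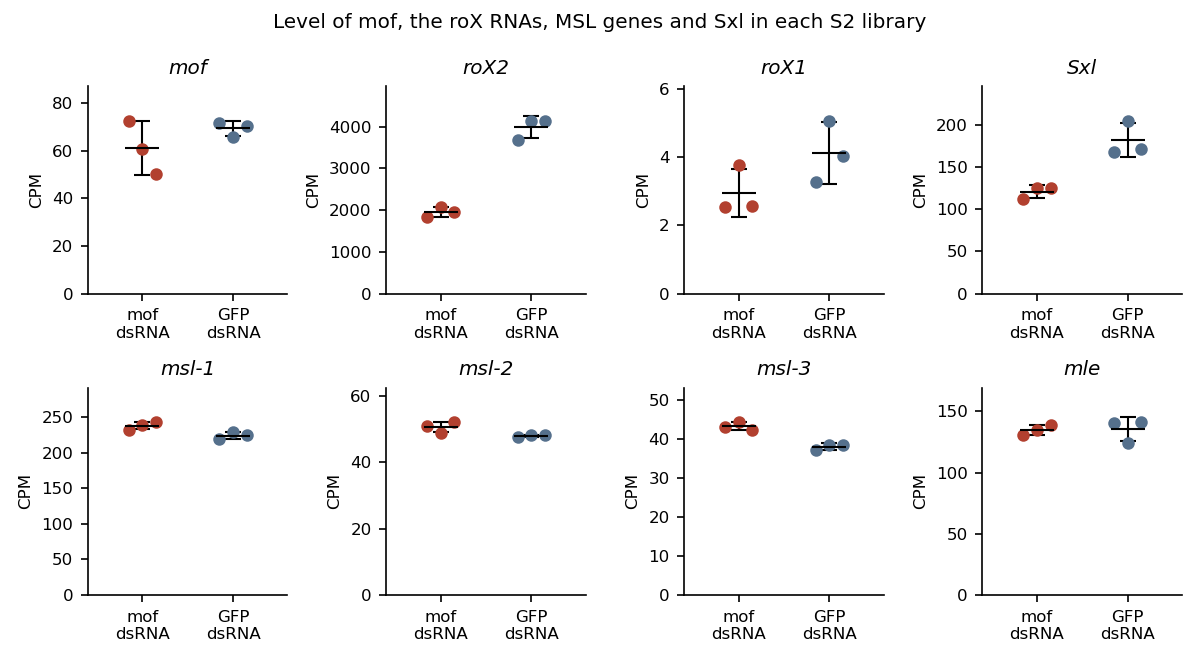
Level in CPM of mof, roX2, roX1, Sxl, msl-1, msl-2, msl-3 and mle in each of 3 mof dsRNA and 3 GFP dsRNA libraries; points are libraries, lines are means and bars SD. roX2 and Sxl are lower in every mof dsRNA library, msl-3 is slightly higher, and mof and roX1 overlap between treatments.

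Of the 8 tested NSL complex genes, mof among them, 1 rose and none fell, while without mof dsRNA replicate 1 none rose and mof fell. Over all tested genes 10.2% rose, so 1 of 8 is near that share and shows no change particular to this list. The riser was MBD-R2, a methyl-CpG-binding domain subunit, with 154, 152 and 154 CPM in mof dsRNA libraries and 142, 131 and 141 CPM in GFP dsRNA libraries (log2 fold change 0.15 ± 0.04, edgeR adjusted p 0.030). The median of the NSL list was 0.10, beside -0.01 over all tested genes. With scaling on autosomal genes no NSL gene passed, and MBD-R2 passed in 2 of the 6 fits that left out 1 library. Of 10 other proteins known to bind the X or its chromatin, su(Hw) [IFT54] (0.15 ± 0.04), an insulator protein, and Su(var)3-7 [TBC1D5] (0.17 ± 0.05), a heterochromatin protein, rose, and passed in 1 and 2 of those 6 fits. Clamp [CG42748], the zinc finger protein that brings the MSL complex to X, did not pass (0.11 ± 0.05), nor did the histone kinase JIL-1 (0.02 ± 0.05).

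Genes on X fell far more often than they rose. Of 1593 tested genes on X, 589 fell (37.0%) and 39 rose (2.45%), whereas of 7859 on chromosomes 2, 3 and 4, 664 fell (8.45%) and 918 rose (11.7%). The median log2 fold change was -0.19 on X, a level 12.3% lower, and 0.02 on autosomes. On X, 82.0% of tested genes had a value below 0, against 45.0% on autosomes, so the shift reached genes that did not pass. Leaving out mof dsRNA replicate 2 gave 390 fallen genes on X, and 402 fallen and 465 risen on autosomes. The autosomal counts were 406 fallen and 501 risen without GFP dsRNA replicate 3, and 607 rose without mof dsRNA replicate 1. With scaling on autosomal genes alone, 814 autosomal genes fell and 671 rose, while on X 650 fell and 29 rose. Which direction held more autosomal genes thus depended on the scaling, and the excess of falls on X did not. Among the fallen genes, which all passed, the median was -0.31 both on X and on autosomes. The threshold for passing bears on both of these medians. At least 1 log2 unit of fall was found for 20 genes on X and 61 on autosomes.

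The autosomal arms resembled each other. The share that fell ran from 7.22% on 2R to 9.67% on 2L, and the share that rose from 10.9% on 2R to 12.8% on 3R. On chromosome 4, the small autosome, 4 of 88 tested genes rose and 2 fell, with a median of -0.03. Along X, in windows of 4000000 bases, between 31.1% and 40.5% of tested genes fell in each of 6 windows, and the window medians ran from -0.26 to -0.16. The fall was thus found along the whole chromosome at this scale. The X median stayed below the autosomal median at every expression level: in 5 equal bins of tested genes by mean CPM the gap was -0.30 in the lowest bin and between -0.21 and -0.17 in the other 4. The share of X genes that fell was 13.4% in the lowest bin and 48.4% in the highest, beside 4.56% and 8.11% of autosomal genes. Of 102 tested noncoding RNA genes on X, 18 fell and 1 rose, with a median of -0.27, while 1438 protein-coding genes on X had a median of -0.18.

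**Figure D2:**
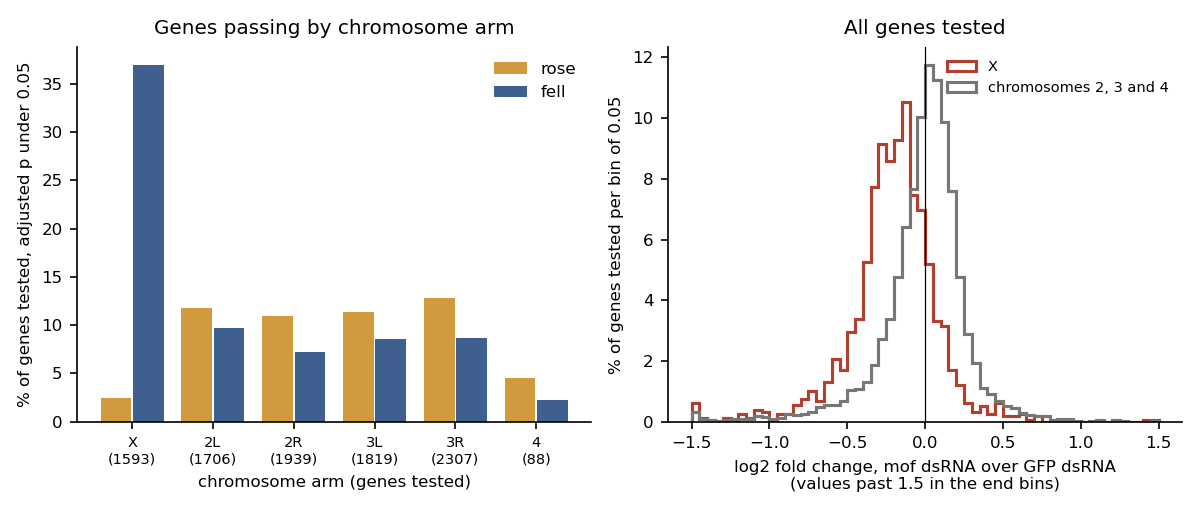
Left, the percentage of tested genes on each chromosome arm that rose or fell with mof dsRNA against GFP dsRNA (edgeR adjusted p under 0.05; tested genes in parentheses). Right, log2 fold changes of tested genes on X and on chromosomes 2, 3 and 4 in bins of 0.05; on X 37.0% fell and the distribution lies left of the autosomal one.

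The same shift was measured once per library as X counts divided by counts on chromosomes 2, 3 and 4. X counts came to 15.1, 15.3 and 15.2% of autosomal counts in mof dsRNA libraries, against 17.4, 17.9 and 17.3% in GFP dsRNA libraries. The groups did not overlap. The log2 ratio averaged -2.72 ± 0.01 in mof dsRNA libraries and -2.51 ± 0.03 in GFP dsRNA libraries (SD, n = 3 each), a difference of -0.20 or 13.2% less. The two-sided exact permutation p was 0.1, the smallest that 3 against 3 libraries can give. The difference was -0.18 without the 50 genes with the most counts, -0.19 without both libraries that stood apart, and between -0.21 and -0.19 when any single library was left out.

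The fallen X genes with the largest changes at a mean of at least 5 log2 CPM, picked after their values were seen, were roX2, Hk, DIP1, Nadsyn, sdt, amn, Sxl, Tob, Mec2 and Vinc. Hk, the beta subunit of the Shaker potassium channel, had 24.7, 25.2 and 29.8 CPM in mof dsRNA libraries, against 38.7, 48.6 and 40.6 CPM in GFP dsRNA libraries (-0.68 ± 0.10). DIP1, a protein that binds double-stranded RNA, had 83.5, 78.7 and 79.8 CPM in mof dsRNA libraries, against 109, 145 and 118 CPM in GFP dsRNA libraries (-0.62 ± 0.11). Both were lower in every mof dsRNA library, and Hk and DIP1 were highest in GFP dsRNA replicate 2. sdt, which encodes a scaffold of the Crumbs polarity complex, was tight within groups, with 51.7, 51.3 and 52.2 CPM in mof dsRNA libraries against 73.3, 83.7 and 79.3 CPM in GFP dsRNA libraries (-0.60 ± 0.06). Nadsyn [CG11158], the enzyme of the last step of NAD synthesis (-0.61 ± 0.06), Tob, an antiproliferative protein (-0.58 ± 0.10), and Vinc, the adhesion protein vinculin (-0.53 ± 0.06), fell by similar amounts.

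Genes on X that rose were few, 39 of 1593. Those with the largest rise at the same expression level, also picked after their values were seen, included Pvf1, a growth factor ligand of the PDGF and VEGF family that signals to hemocytes. Pvf1 had 86.8, 106 and 98.6 CPM in mof dsRNA libraries, against 63.2, 56.1 and 59.5 CPM in GFP dsRNA libraries (0.70 ± 0.07, edgeR adjusted p 5.4e-05). ATPsyndelta [CG2962], a subunit of mitochondrial ATP synthase, had 74.3, 72.2 and 69.3 CPM in mof dsRNA libraries, against 52.4, 50.3 and 51.4 CPM in GFP dsRNA libraries (0.49 ± 0.05). Enzymes of purine and folate metabolism stood among them, Paics (0.40 ± 0.05), of purine synthesis, and Shmt [CG12236] (0.36 ± 0.07), which moves a carbon unit from serine to folate. Tsf1, a transferrin that carries iron, rose by 0.38 ± 0.06. All of these libraries separated by treatment.

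**Figure D3:**
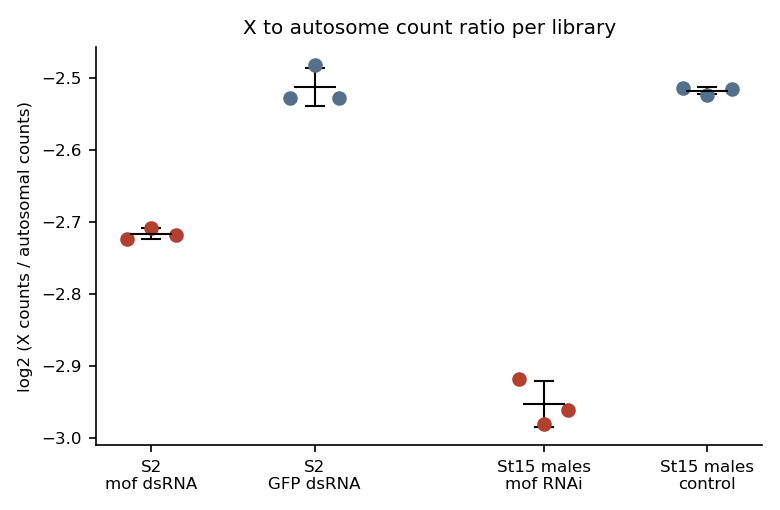
Log2 of X counts over counts on chromosomes 2, 3 and 4 in each library of S2 cells (mof dsRNA, GFP dsRNA) and of St15 males (mof RNAi, control); lines are means and bars SD, n = 3 each. The mof dsRNA libraries of S2 cells lie near -2.72 and the GFP dsRNA libraries near -2.51, while the St15 mof males lie near -2.95 and control males near -2.52.

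By the rule for named genes (passing, at least 2 log2 CPM, no overlap between groups), the leading falls were mostly autosomal and of low level. Of these 12 genes, 11 were not on X. Among all passing genes, whatever their level, the largest fall was -3.49 on autosomes and -2.28 on X, both beyond those of the 12. CG7997, a predicted alpha-galactosidase of the lysosome, had 1.57, 1.40 and 2.09 CPM in mof dsRNA libraries, against 6.58, 6.83 and 7.19 CPM in GFP dsRNA libraries (-2.01 ± 0.15, edgeR adjusted p 1.3e-05). Hexo1 [CG15012], a hexosaminidase, which also cleaves sugars, had 14.4, 11.8 and 14.7 CPM in mof dsRNA libraries, against 34.9, 28.8 and 34.7 CPM in GFP dsRNA libraries (-1.26 ± 0.10). Fign [CG3277], a fidgetin that severs microtubules, had 5.85, 5.22 and 5.84 CPM in mof dsRNA libraries, against 17.8, 17.2 and 17.6 CPM in GFP dsRNA libraries (-1.63 ± 0.08). That all 3 were lower in every mof dsRNA library than in any GFP dsRNA library was set by the rule that chose them. Rpt3R [Alg12], a copy of the proteasome ATPase gene Rpt3 that is expressed mainly in testis, fell by 1.64 ± 0.13 on the log2 scale. Nek2, a mitotic kinase and the X gene among the 12, fell by 1.25 ± 0.09. f-cup [CG14367, ninaB] (-1.15 ± 0.07), the sugar receptor gene Gr61a (-1.09 ± 0.09), CG13742 [CNT1] (-1.06 ± 0.07), CG8301 (-1.23 ± 0.11), CG5466 (-1.14 ± 0.12), CG7352 (-1.08 ± 0.13) and asRNA:CR44807 [pippin] (-1.99 ± 0.17) completed the set. The last is antisense RNA, and no source used here tells if reads were assigned by strand, so its counts and those of pippin cannot be told apart.

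By the same rule, the leading risen genes were all off X by annotation or without a current one. Among all passing genes the largest rise on X was 1.53, beside 1.56 on autosomes. CG6472, a predicted lipase, had 5.78, 6.67 and 6.74 CPM in mof dsRNA libraries, against 2.11, 1.90 and 2.44 CPM in GFP dsRNA libraries (1.56 ± 0.13, edgeR adjusted p 3.3e-05). Nep4, a neprilysin-type peptidase, had 11.4, 13.6 and 15.1 CPM in mof dsRNA libraries, against 6.29, 5.17 and 5.02 CPM in GFP dsRNA libraries (1.28 ± 0.12). fz, the Wnt receptor of planar cell polarity, had 6.68, 8.25 and 8.18 CPM in mof dsRNA libraries, against 3.33, 3.51 and 3.55 CPM in GFP dsRNA libraries (1.15 ± 0.12). That these 3 were higher in every mof dsRNA library was set by the rule that chose them. Their levels were well under those of the MSL genes other than roX1. CG16762 (1.25 ± 0.09), Smyd4-3, a SET and MYND domain protein (1.11 ± 0.08), CG43968 (1.10 ± 0.15), the gene FBgn0250876, which the annotation used does not name (0.96 ± 0.10), CG32354 [Exo70] (0.92 ± 0.14), the odorant-binding protein Obp99a (0.84 ± 0.08), CG7781 [strat] (0.79 ± 0.16), MYPT-75D, a targeting subunit of myosin phosphatase (0.79 ± 0.16), and CG11686 (0.79 ± 0.10) followed.

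**Figure D4:**
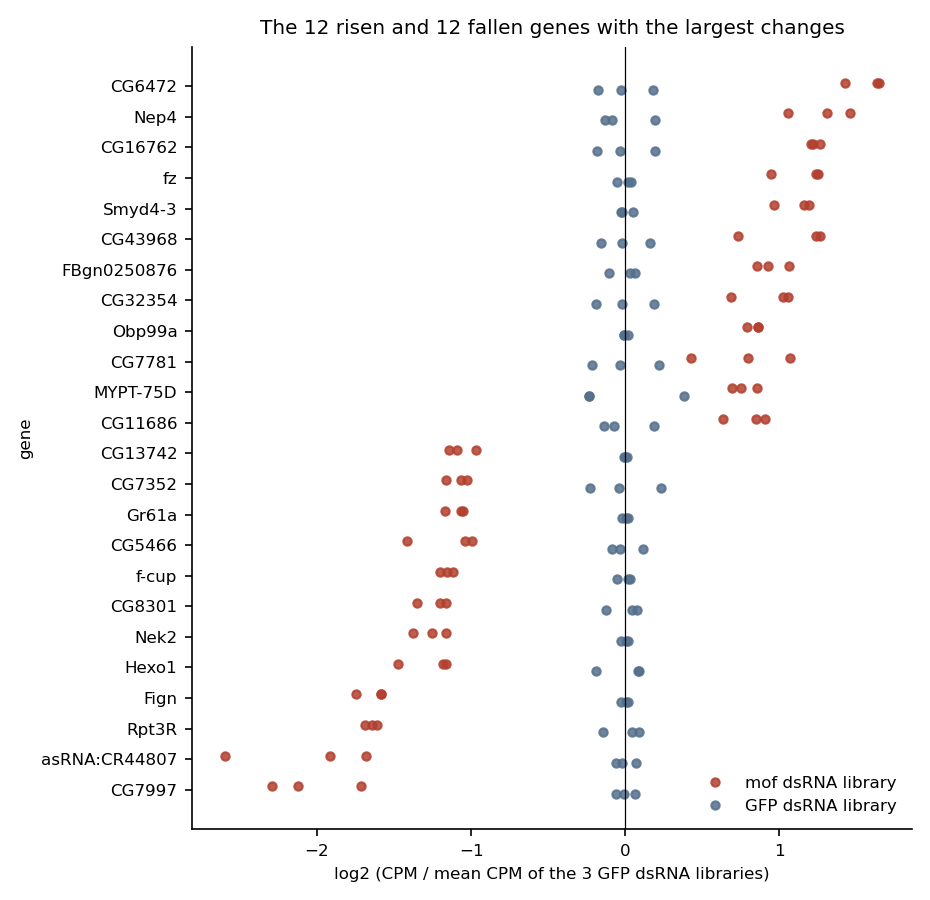
CPM per library of 12 genes that rose and 12 that fell, as log2 of CPM over the mean CPM of the 3 GFP dsRNA libraries. They had the largest changes among passing genes of at least 2 log2 CPM whose groups did not overlap. Points are libraries. Treatments do not overlap for any of the 24 genes, which was part of the rule that chose them. CG7997 and CG6472 have the largest fall and rise among the 24.

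Gene lists for cell functions were set beside the 10.2% of all tested genes that rose and the 13.2% that fell. These shares pool chromosomes and expression levels. On X 2.45% rose and 37.0% fell, and on autosomes 11.7% rose and 8.45% fell. Of autosomal genes, 27 of 1602 rose in the lowest of the 5 bins by mean CPM and 287 of 1578 in the highest. A list's count thus also depends on its members' chromosome and level, and no list was matched for these. Counts on X and on autosomes are given apart for some lists. Many calls depended on single libraries. Of 144 genes named by the rule or picked on X that passed, 93 passed in each of the 6 fits that left out 1 library. By size of log2 fold change, these were none of 23 under 0.2, 33 of 49 from 0.2 to 0.3, and 60 of 72 over 0.3. Of 24 ribosome biogenesis genes, which build ribosomal subunits in the nucleolus, 18 rose and 1 fell, with a median of 0.22. Polr1A [CG12869], the largest subunit of RNA polymerase I, had 235, 234 and 249 CPM in mof dsRNA libraries, against 196, 189 and 191 CPM in GFP dsRNA libraries (0.32 ± 0.04, edgeR adjusted p 5.2e-04). The nucleostemin Ns1 (0.31 ± 0.04), the nucleolar chaperone Nopp140 [P5CDh1] (0.28 ± 0.04) and Nop56, a core protein of methylation-guiding particles (0.28 ± 0.04), rose with it. The member that fell was Mnt (-0.31 ± 0.07), a repressor of Myc targets that lies on X. Of the 18 risen members 16 also rose with scaling on autosomal genes, and 16 without both libraries that stood apart, where 2 members fell. Leaving out 1 library gave 11 to 17 risen members, lowest without GFP dsRNA replicate 3, and 12 without mof dsRNA replicate 2 or 3. The cytoplasmic ribosomal protein genes themselves had 1 riser, RpL15 (0.18 ± 0.05), of 75 tested, and this count depended on the setting. DESeq2 gave 7 risen and 1 fallen, leaving out both libraries that stood apart gave 1 risen and 7 fallen, and leaving out 1 library gave 0 to 5 risen and 0 to 3 fallen.

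Of 31 proteasome genes, 16 rose and 1 fell, with a median of 0.16. Prosalpha5 of the catalytic core had 99.6, 99.8 and 96.1 CPM in mof dsRNA libraries, against 85.6, 82.9 and 82.8 CPM in GFP dsRNA libraries (0.24 ± 0.05, edgeR adjusted p 0.004). Prosbeta5 [Lsm10] (0.23 ± 0.06), Prosalpha3 (0.23 ± 0.05) and Rpn12 of the lid (0.22 ± 0.05) rose too, and the ATPase Rpt3, on X, fell (-0.20 ± 0.05). The count of risen members was 8 with scaling on autosomal genes, 11 without both libraries that stood apart, 7 without mof dsRNA replicate 1, and 5 without mof dsRNA replicate 2 or without GFP dsRNA replicate 3. Of 61 nuclear genes of oxidative phosphorylation, 18 rose and 6 fell, with a median of 0.11. The 6 fallen members were all among the 11 on X, and included the complex I subunits ND-ASHI [Fum1] (-0.37 ± 0.09), ND-24 (-0.32 ± 0.09) and ND-20 (-0.29 ± 0.06) and the complex III subunit UQCR-14 [CG32576] (-0.27 ± 0.05). Of the 50 autosomal members 17 rose, among them ATPsynB (0.28 ± 0.05), UQCR-6.4 [POSH] (0.30 ± 0.07) and levy [pita] (0.26 ± 0.08), a cytochrome c oxidase subunit. The count of risen members was 9 with scaling on autosomal genes, 12 without both libraries that stood apart, 5 without mof dsRNA replicate 1, 3 without mof dsRNA replicate 2, 4 without GFP dsRNA replicate 3 and 11 without GFP dsRNA replicate 2. The count of fallen members was 2 to 6 when 1 library was left out. ND-ASHI and ND-24 passed in 3 and 2 of those 6 fits, and UQCR-6.4 and levy in 4 and 2. Beside this, the 10 tested mRNAs encoded in the mitochondrial genome had a median of -1.10 with none passing by edgeR or DESeq2 and none at an unadjusted edgeR p under 0.05, and mof dsRNA replicate 1 was far lower than the rest for most of them. Without that library their median was -0.52 and 2 of 11 fell. The part of that library's low mitochondrial RNA in the nuclear counts was not tested.

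Genes of the cell cycle and of DNA replication had changes of similar size. Of 26 cell cycle genes 9 rose and 2 fell, with a median of 0.10. stg, the Cdc25 phosphatase that starts mitosis, had 690, 755 and 774 CPM in mof dsRNA libraries, against 524, 572 and 588 CPM in GFP dsRNA libraries (0.40 ± 0.06, edgeR adjusted p 7.0e-04). Cdk2 [CG17267] (0.27 ± 0.05), Incenp (0.27 ± 0.05) and Cdk1 (0.23 ± 0.05) rose, and the G1 cyclin CycD, on X, fell (-0.40 ± 0.05). Of 24 DNA replication and repair genes 9 rose and 2 fell, with a median of 0.13. The replicative helicase subunits Mcm5 (0.26 ± 0.05), Mcm7 (0.22 ± 0.05) and Mcm2 (0.19 ± 0.05) rose, and both that fell, the nuclease mei-9 (-0.38 ± 0.06) and the checkpoint kinase mei-41 [CG9981] (-0.33 ± 0.05), are on X. Leaving out 1 library gave 6 to 10 risen cell cycle genes, 6 without mof dsRNA replicate 2 or 3, and 3 to 11 risen replication genes, 3 without mof dsRNA replicate 2 or 3 and 4 without GFP dsRNA replicate 3. Of 13 genes of the unfolded protein response 5 rose, with CaBP1 (0.28 ± 0.05) and ERp60 [cuff] (0.24 ± 0.05), protein disulfide isomerases, in the lead, and 2 on X fell, Edem1 [mip130] (-0.28 ± 0.04) and prtp (-0.23 ± 0.05). Without mof dsRNA replicate 2 or 3 the risen members of that list were 2 and 3.

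In other lists more members fell than rose. Of 20 actin and adhesion genes 9 fell and none rose, with a median of -0.16. On X 5 of 9 tested members fell, and on autosomes 4 of 11. Without mof dsRNA replicate 2, 5 members fell. mys, the beta integrin, had 468, 444 and 460 CPM in mof dsRNA libraries, against 632, 653 and 614 CPM in GFP dsRNA libraries (-0.47 ± 0.05, edgeR adjusted p 1.4e-04). Its alpha partner mew [CG15742] (-0.38 ± 0.08) and Vinc lie on X too, while talin, encoded by rhea [CG6638] (-0.19 ± 0.05), and Galphaf, a G protein subunit (-0.65 ± 0.10), are autosomal. Of 32 innate immune genes 9 fell and 2 rose, with a median of -0.01. On X 3 of 4 tested members fell, and on autosomes 6 of 28. The fallen count was 5 without GFP dsRNA replicate 3 and 6 without mof dsRNA replicate 1 or 2. The antimicrobial peptide gene CecC had 46.1, 53.1 and 40.4 CPM in mof dsRNA libraries, against 62.0, 77.2 and 66.4 CPM in GFP dsRNA libraries (-0.56 ± 0.13), and CecB (-0.34 ± 0.06) and the kinase Tak1 (-0.34 ± 0.05) fell as well. AttB (0.25 ± 0.06) and DptB [CG43109] (0.24 ± 0.05) rose, so the antimicrobial peptides went both ways. CecC passed in 3 of the 6 fits that left out 1 library, and CecB, AttB and DptB in all 6. Of 12 JNK pathway genes 4 fell and none rose, with 2 to 6 fallen when 1 library was left out and 2 without mof dsRNA replicate 2. On X 2 of 3 tested members fell, slpr [CG2278] (-0.22 ± 0.04) and wgn (-0.18 ± 0.05), and on autosomes 2 of 9. The pathway's phosphatase and target puc, which is autosomal, fell (-0.21 ± 0.06) and passed in 2 of the 6 fits that left out 1 library.

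Other lists had calls in both directions or few. Of 12 RNA interference genes AGO2 [CG7739], the slicer that uses small interfering RNA, fell, with 542, 560 and 603 CPM in mof dsRNA libraries against 687, 681 and 664 CPM in GFP dsRNA libraries (-0.25 ± 0.05), and Ars2 rose (0.13 ± 0.04). Ars2 did not pass with scaling on autosomal genes, and passed in 1 of the 6 fits that left out 1 library. Dcr-2 [Rab4], which cuts dsRNA, did not pass (0.02 ± 0.04). Of 9 tested histone acetyltransferase genes nej, the CBP enzyme on X, fell (-0.26 ± 0.04) and Hat1 [kat-60L1] rose (0.20 ± 0.05). Of 8 histone deacetylase genes HDAC6 (-0.30 ± 0.06) and HDAC4 (-0.25 ± 0.04), both on X, fell. Of 23 Polycomb and trithorax group genes 5 rose, led by Caf1-55 (0.27 ± 0.05), and 3 fell, of which ph-d (-0.22 ± 0.05) and ph-p (-0.21 ± 0.05) are on X and osa is not. That balance turned without mof dsRNA replicate 1, with 1 risen and 4 fallen, and 2 rose with scaling on autosomal genes. Leaving out 1 library gave 1 to 4 risen and 1 to 4 fallen. Heat shock and chaperone genes had no riser among 15, and stv (-0.50 ± 0.12) and Hsp68 [CG6000] (-0.15 ± 0.05) fell. They passed in 5 and 1 of the 6 fits that left out 1 library. Of 22 genes of oxidative stress and detoxification 3 rose, a share near that of all tested genes, GstD2 (0.55 ± 0.18), Cyp6a8 (0.52 ± 0.11) and GstD5 (0.49 ± 0.07), and Gclc, on X, fell (-0.18 ± 0.05). GstD2 passed in none of the 6 fits that left out 1 library. Of 10 tested metal handling genes 2 rose, the metallothionein MtnA (0.44 ± 0.11) and Fer1HCH [Fer2LCH] (0.26 ± 0.06). In the same list 3 fell, Ctr1A, on X (-0.28 ± 0.07), the ZnT63C zinc transporter (-0.23 ± 0.04) and MTF-1 [Bet3, CG42526] (-0.18 ± 0.05). MtnA passed in 3 of those 6 fits, Ctr1A and MTF-1 in 4 each, and Fer1HCH and ZnT63C in all 6. Of 19 tested readouts of Notch, Hippo, Wnt and EGFR signalling, 2 rose, aos among them, and 2 fell, shares near those of all tested genes. aos, a secreted inhibitor and target of the EGF receptor, had 231, 230 and 246 CPM in mof dsRNA libraries, against 151, 165 and 160 CPM in GFP dsRNA libraries (0.57 ± 0.05). Of 15 tested hemocyte markers, which are genes of the line itself, 1 rose, Hml (0.29 ± 0.06), and 1 fell, srp (-0.18 ± 0.05). Both shares are under those of all tested genes. Hml passed in all 6 fits that left out 1 library and srp in 3. In bulk RNA, a lower level per cell and fewer cells of a kind cannot be told apart.

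**Figure D5:**
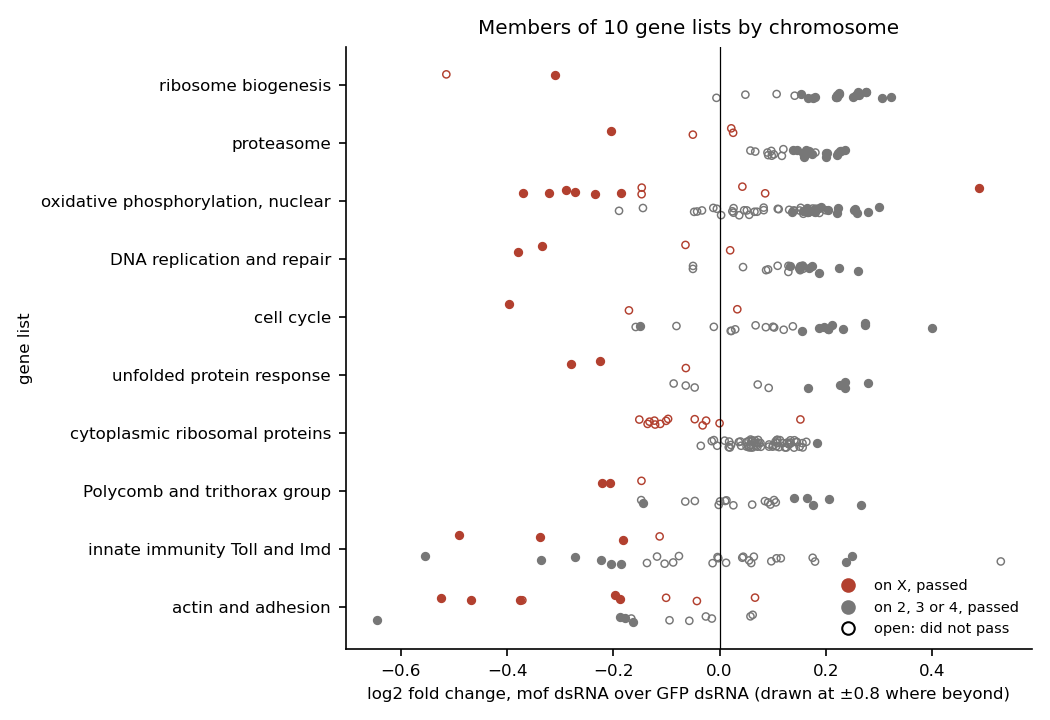
Log2 fold changes (mof dsRNA over GFP dsRNA) of the tested members of 10 gene lists, members on X above members on chromosomes 2, 3 and 4; filled points passed (edgeR adjusted p under 0.05). In the ribosome biogenesis, proteasome, oxidative phosphorylation, cell cycle and DNA replication lists most filled autosomal points lie above 0 and, apart from ATPsyndelta, filled X points lie below 0.

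Set beside male embryos of St15, the shift of X in S2 cells was smaller. X counts came to 12.9 ± 0.29% of autosomal counts in St15 mof males and 17.5 ± 0.06% in control males (SD, n = 3 each), a log2 difference of -0.44, against -0.20 in S2 cells. The difference between these was 0.23, with a two-sided exact permutation p of 0.235 over 400 arrangements. That test supposes no effect in either material, so it cannot tell if effects present in both differ in size. Gene by gene, the edgeR test of the difference passed for 1591 of 11762 genes (13.5%). On X, 565 of 1852 genes had a higher change in S2 cells than in St15 males, meaning mostly a smaller fall, and 22 a lower one, while on autosomes 392 were higher and 584 lower of 9654. Leaving out GFP dsRNA replicate 3 lowered the 1591 to 959. In St15 males 31.2% of genes passed.

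The fall of mof RNA was larger in the embryos than in the S2 libraries. It had 3.00, 2.48 and 2.17 CPM in St15 mof males, against 18.54, 38.68 and 18.95 CPM in control males, a log2 fold change of -3.28 ± 0.30, and the difference from S2 cells was 3.11 (edgeR adjusted p 5.1e-04). roX2 fell in both materials, with a log2 fold change of -1.03 in S2 cells and -1.40 ± 0.09 in St15 males, and the difference of 0.37 ± 0.12 did not pass (edgeR adjusted p 0.059). roX1, abundant in embryos at 229 to 311 CPM in mof males and 847 to 893 CPM in control males, fell there by 1.68 ± 0.14 on the log2 scale. Sxl changed by nearly the same amount in S2 cells (-0.59) and St15 males (-0.62 ± 0.10), and the difference of 0.03 did not pass (edgeR adjusted p 0.972).

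Of the 1567 X genes tested in both materials, 588 fell in S2 cells and 999, or 63.7%, in St15 males, and 462 fell in both, which is 78.6% of the S2 list and 46.3% of the St15 list. None of the 39 risen X genes of S2 cells was among the 11 of St15 males. These were 2.49% and 0.70% of the X genes tested in both, so a lack of shared genes says little. ATPsyndelta and Pvf1, which rose in S2 cells, fell in St15 males (-0.41 ± 0.08 and -0.34 ± 0.10), and their differences of 0.90 and 1.04 passed (edgeR adjusted p 2.1e-04 and 4.0e-04). Shmt likewise fell in St15 males (-0.63 ± 0.08) and differed by 0.99. On autosomes 453 genes rose in both, 49.5% of the 916 of S2 cells and 28.4% of the 1597 of St15 males, where 11.9% and 20.7% of the 7713 autosomal genes tested in both rose. Fallen in both were 185 autosomal genes, 27.9% of the 663 of S2 cells and 26.1% of the 709 of St15 males, where 8.60% and 9.19% of tested genes fell. Material, table and way of lowering mof differ together between S2 cells and embryos and cannot be told apart.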

How the data were processed

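The authors deposited whole-number counts per gene, 1 column per library, with no pooling. Per the submitters' processing notes the genome build was dm6. Libraries were TruSeq Stranded mRNA, per the labels' protocols. For the aligner, the counter, its annotation and its strand setting the entry is: not given in the sources used here. Of 17558 gene IDs, 17252 were matched to Ensembl release 115, which held 95.6% of counts of the S2 table.

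edgeR 4.0.16 (R 4.3.3) fitted the 6 S2 libraries with TMM scaling, filterByExpr and robust quasi-likelihood. Adjusted p is Benjamini-Hochberg over 9676 genes. SE was taken as |log2 fold change| divided by the root of the F statistic. CPM is a count divided by all counts of its library, on the usual CPM scale. The difference from St15 males came from a joint fit of 12 libraries, 4 groups. Tested on simulated data, the fits returned median changes near those put in, and missed many of the smaller changes. Autosomes are chromosomes 2, 3 and 4. Replicate pairs differed by 7.03 to 45.6 times the chi-square per degree of freedom of counting noise, so all libraries were kept as separate samples.

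Named genes are mof, the MSL genes, roX1, roX2, Sxl, the 12 strongest changes in each direction (at least 2 log2 CPM, groups not overlapping), at most 4 passing genes of each list per direction, and the 5 genes with the most counts in each group. The text prints a part of these. Members and lists were chosen with earlier results of these data known. Alternatives were DESeq2 1.42.0, other scalings and filters, a replicate block and leaving out libraries. The St15 mof genotype text says control but gives the mof stock, and titles were followed. St5, St7 and St15 females were not used here.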

Additional observations from a re-analysis of the deposited data

Results flagged for a closer look

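The edgeR test of the difference in mof effect, S2 cells less St15 males, passed for 1591 genes. Among the named genes, the difference in log2 fold change was 3.11 for mof, -0.48 for msl-1 and 1.19 for roX1 [ec]. These 3 had S2 changes that did not pass. For the leading fallen genes of S2 cells it was -2.63 for CG7997, which rose in St15 males (0.62 ± 0.11), -2.15 for Rpt3R [Alg12], -1.10 for Hexo1 [CG15012], -1.26 for CG5466 and -0.89 for CG13742 [CNT1]. For the leading risen genes it was 1.02 for fz, 0.98 for Nep4, 0.79 for Smyd4-3, 0.79 for FBgn0250876, 1.02 for CG32354 [Exo70], 1.09 for Obp99a, 0.95 for CG7781 [strat] and 0.79 for CG11686. The leading genes were chosen for a large change in S2 cells, so a difference in that direction is partly set by the choice.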

How the results depend on the processing

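Leaving out each library in turn gave 1317 to 2186 genes passing, with 390 to 602 fallen and 26 to 39 risen on X, and 402 to 643 fallen and 465 to 851 risen on autosomes. Genes whose change differed from St15 males then numbered 959 to 1842. Dropping genes whose exons overlap those of a protein-coding gene left 1461 passing of 6445, with 396 fallen on X and 405 fallen and 582 risen on autosomes, since fewer genes were tested. The X median less the autosomal median was -0.21 and ran from -0.23 to -0.20 over all alternatives. DESeq2 gave 1991 genes passing, and 1875 of the 2261 genes passed there in the same direction. With scaling on autosomal genes 1998 of the 2261 did. mle, whose value was -0.004, was at 0.00198 with DESeq2, 1.2e-04 with RLE scaling, and -0.055 to 0.0238 when single libraries were left out. Among genes with the most counts, snoRNA:Psi18S-176 (0.39, not passing) was at -0.00769 without mof dsRNA replicate 1, up to 0.56 without others, and -0.024 without both libraries that stood apart, snRNA:7SKa ran from -0.034 without mof dsRNA replicate 1 to 0.16 without replicate 3, and FBgn0000556 was at -0.0091 with scaling on autosomal genes and at -0.0146 to 0.039 without single libraries (-0.00667 without GFP dsRNA replicate 2). For these the cause was not tested. Same-numbered libraries deviated together with correlations of -0.088 to 0.15, so the numbers are not taken to pair them. With the replicate block 2174 genes passed, 578 fell on X, Ars2 no longer passed, and the X ratio differed by -0.20 in pairs (exact permutation p 0.25, the smallest that 3 pairs can give). Leaving out both libraries that stood apart and leaving out genes with overlapping exons were chosen after seeing the data. Depth limits roX1, which had 71 to 149 counts per library.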

Other observations

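Of 14 genes of JAK-STAT signalling and virus response 3 rose, Nazo (0.31 ± 0.06), TotM (0.24 ± 0.07) and vir-1 (0.16 ± 0.04), and 4 fell, the receptor dome (-0.21 ± 0.06), the kinase hop (-0.16 ± 0.05) and the ligand upd3 (-0.31 ± 0.08), all on X, and Socs36E (-0.17 ± 0.04), a feedback inhibitor. With scaling on autosomal genes 1 rose and 4 fell, and leaving out 1 library gave 1 to 3 risen and 0 to 4 fallen, with 1 risen and none fallen without GFP dsRNA replicate 3. Of these, 1 risen and 4 fallen were found without mof dsRNA replicate 1, and 1 risen and 1 fallen without mof dsRNA replicate 3. Of 13 glycolysis genes Pgi rose (0.21 ± 0.06) and Hex-A, on X, fell (-0.30 ± 0.07). Of 10 genes of amino acid stress Shmt and Nmdmc [Mst85C] (0.23 ± 0.06), which both act on folate, rose, and aay (-0.49 ± 0.07), a phosphatase of serine synthesis, and Bcat (-0.21 ± 0.04) fell. Of 13 lipid genes none rose, and the lipid droplet gene Lsd-1 [CG10214] (-0.21 ± 0.06), the lipase bmm (-0.20 ± 0.04) and eas (-0.20 ± 0.05) fell. Of 21 autophagy and lysosome genes Atg8a (-0.26 ± 0.07) and CtsB (-0.20 ± 0.06), both on X, fell and none rose. Beside these lists, 10.2% of all tested genes rose and 13.2% fell, and 37.0% of those on X fell. In the JAK-STAT list 3 of 4 tested members on X fell, and 1 of 10 on autosomes. Leaving out 1 library gave 0 to 1 risen and 0 to 1 fallen glycolysis genes, 2 to 3 fallen amino acid genes, 1 to 3 fallen lipid genes and 0 to 2 fallen autophagy genes. Of 10 sex determination genes Sxl fell and none rose. Of 13 ecdysone response genes 1 rose, of 12 apoptosis genes 1 rose, and none fell in either list, whereas DESeq2 gave 0 risen in both and 2 fallen ecdysone genes. By edgeR, the shares called in the glycolysis, autophagy, sex determination, ecdysone and apoptosis lists were under those of all tested genes in both directions. Of 3 tested neuronal markers elav [arg], on X, fell (-0.37 ± 0.08), and no muscle marker of 6 and no Kc or ovary marker of 7 passed by edgeR or DESeq2, with Mlc2 the only gene of both lists at an unadjusted edgeR p under 0.05.

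The RNAs with the most counts included small structural RNAs and a laminin. RNaseMRP:RNA had 20939, 18168 and 20146 CPM in mof dsRNA libraries and 20204, 19872 and 23442 CPM in GFP dsRNA libraries. LanA, a laminin subunit of the basement membrane, had 6631, 6395 and 6732 CPM in mof dsRNA libraries and 6643, 5796 and 6154 CPM in GFP dsRNA libraries. Neither passed. snoRNA genes summed to 57788 to 75897 CPM in mof dsRNA libraries and 58757 to 71908 CPM in GFP dsRNA libraries, highest in mof dsRNA replicate 1. The labels give the RNA as polyA, and how these small RNAs came to be counted was not tested.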
